A study of Homo sapiens with 8 samples.

Results

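G4 peaks at bidirectional coding promoters are the G4 ChIP-seq intervals that overlap the stretch between a minus-strand and a plus-strand transcription start site (TSS) of different protein-coding genes, the minus-strand site at the lower coordinate and the sites at most 1 kb apart. In the GENCODE annotation on hg19 these stretches merged into 1436 loci, and 899 of them contain a facing pair of canonical TSSs. Members were chosen by position alone, by an overlap of at least 1 bp. They numbered 869 of 9205 high-confidence peaks in K562 and 799 of 8805 in HepG2. They were compared with peaks at one-sided promoters, which lie within 1 kb upstream of a coding TSS that has no opposite-strand coding TSS of another gene within that distance, and which numbered 5416 in K562 and 4333 in HepG2.

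K562 cells derive from chronic myelogenous leukemia and HepG2 cells from hepatocellular carcinoma. Each cell type is thus represented by a single established line, and the labels give neither a treatment. G4 ChIP-seq recovers crosslinked chromatin with an antibody to folded G-quadruplexes, and the labels name 3 G4 ChIP libraries and 1 input library for each line. The intervals were called per replicate and merged, and a high-confidence peak recurred in no fewer than 5 of the 8 K562 or 6 of the 9 HepG2 replicates. These replicates are technical ones from 3 independent experiments per line, so they are not 8 and 9 independent samples. A lower-confidence list keeps what was found in at least 2 replicates. The lists give only positions, so depth and the spread between replicates are unknown, the line labels could not be checked against markers, and all intervals below (95%) cover the counting of peaks, genes or loci only.

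A bidirectional promoter drives divergent genes from a shared nucleosome-depleted stretch. Such promoters are typically CpG islands without a TATA box, and many of them serve housekeeping functions such as DNA repair, the mitochondrial ribosome and the core histones. A G-quadruplex (G4) is a four-stranded fold of G-rich DNA, and the canonical sequence for it holds 4 G-runs, each 3 bases or longer, separated by 1 to 7 bases. That sequence on either strand is called a G4 motif here.

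Sequences of the stretches are given first, because the peaks in them differed in whether they held such a motif. All are segments printed 5′ to 3′ on the plus strand of GRCh37, outside every annotated exon and at most 300 bases long, so most cover only part of a peak. In the first set the capitals mark each G4 motif, written as C-runs where the G-runs are on the minus strand. The peak of both lines between IFT25 (intraflagellar transport) and LRRC42 is shown at chr1:54411373-54411672, the HepG2 peak between SEPTIN10 (a septin) and SOWAHC at chr2:110371721-110371940, and the peak of both lines between PRKRA (activator of the kinase PKR) and PJVK at chr2:179316006-179316072. The HepG2 peak between NPAT (histone gene transcription) and ATM (the DNA damage kinase) is shown at chr11:108093454-108093753. Its motif spans chr11:108093501-108093524, and the narrower K562 peak begins inside it, at position 108093517.
IFT25/LRRC42: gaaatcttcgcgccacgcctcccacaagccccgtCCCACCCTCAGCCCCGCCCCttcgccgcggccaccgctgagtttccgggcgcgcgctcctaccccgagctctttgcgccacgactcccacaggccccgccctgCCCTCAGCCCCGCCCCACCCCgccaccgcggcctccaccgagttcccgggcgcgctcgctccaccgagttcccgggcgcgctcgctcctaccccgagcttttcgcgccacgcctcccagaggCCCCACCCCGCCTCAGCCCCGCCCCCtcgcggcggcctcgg
SEPTIN10/SOWAHC: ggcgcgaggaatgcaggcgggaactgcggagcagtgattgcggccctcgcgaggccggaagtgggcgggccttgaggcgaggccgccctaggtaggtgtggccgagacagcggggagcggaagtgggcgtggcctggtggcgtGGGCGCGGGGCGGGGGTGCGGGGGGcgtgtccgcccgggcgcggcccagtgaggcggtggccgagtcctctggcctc
PRKRA/PJVK: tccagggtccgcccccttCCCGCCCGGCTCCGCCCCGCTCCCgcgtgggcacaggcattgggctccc
NPAT/ATM: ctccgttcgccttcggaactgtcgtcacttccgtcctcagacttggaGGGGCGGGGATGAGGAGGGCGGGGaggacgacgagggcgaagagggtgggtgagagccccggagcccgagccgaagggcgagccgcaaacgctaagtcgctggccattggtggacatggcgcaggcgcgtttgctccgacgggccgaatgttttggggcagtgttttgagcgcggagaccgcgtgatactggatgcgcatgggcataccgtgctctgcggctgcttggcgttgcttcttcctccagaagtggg

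The second set shows peaks that held no G4 motif, with each run of 3 or more G or C in capitals. It gives the HepG2 peak between SARS2 (mitochondrial seryl-tRNA synthetase) and MRPS12 (mitochondrial ribosome) at chr19:39421414-39421583, the K562 peak between OARD1 (an ADP-ribose hydrolase) and NFYA (a CCAAT-binding subunit) at chr6:41040401-41040700, and the peak of both lines between PPAT and PAICS (both purine synthesis) at chr4:57301782-57301906. The OARD1/NFYA segment held 12 runs of G, none of them spaced as a motif, and the SARS2/MRPS12 segment held 4 runs of C and none of G.
SARS2/MRPS12: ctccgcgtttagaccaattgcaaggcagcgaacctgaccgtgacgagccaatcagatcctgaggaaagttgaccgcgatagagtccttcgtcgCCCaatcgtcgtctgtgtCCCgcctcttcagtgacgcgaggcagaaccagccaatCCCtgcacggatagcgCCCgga
OARD1/NFYA: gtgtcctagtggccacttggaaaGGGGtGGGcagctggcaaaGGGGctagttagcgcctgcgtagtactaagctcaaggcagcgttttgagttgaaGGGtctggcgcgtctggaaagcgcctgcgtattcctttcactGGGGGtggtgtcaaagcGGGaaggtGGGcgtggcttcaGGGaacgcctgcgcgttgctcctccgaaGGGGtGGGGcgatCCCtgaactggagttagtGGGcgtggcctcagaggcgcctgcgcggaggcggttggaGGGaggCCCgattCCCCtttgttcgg
PPAT/PAICS: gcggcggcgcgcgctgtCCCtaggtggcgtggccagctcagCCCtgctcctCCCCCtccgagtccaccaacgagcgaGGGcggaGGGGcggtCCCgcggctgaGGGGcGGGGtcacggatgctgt

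The third set shows the reverse case, stretches in which none of the 4 lists had an interval. HES2 (a basic helix-loop-helix repressor) and ESPN (espin, an actin bundler) face each other across a stretch that includes chr1:6484731-6484835, which held 2 G4 motifs, in capitals, and NRG4 (neuregulin 4) and TMEM266 over chr15:76352137-76352298, which also held 2.
HES2/ESPN: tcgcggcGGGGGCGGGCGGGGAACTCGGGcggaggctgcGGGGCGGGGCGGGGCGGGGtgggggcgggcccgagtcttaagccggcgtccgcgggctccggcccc
NRG4/TMEM266: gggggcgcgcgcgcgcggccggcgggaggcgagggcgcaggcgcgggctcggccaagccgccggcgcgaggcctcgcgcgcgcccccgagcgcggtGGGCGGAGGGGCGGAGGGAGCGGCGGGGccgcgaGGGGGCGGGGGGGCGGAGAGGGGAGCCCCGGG

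A high-confidence peak lay in 781 of the 1436 loci in K562 (54.4%, 51.8 to 56.9) and in 741 in HepG2 (51.6%, 49 to 54.2). Only a lower-confidence interval was present at a further 273 K562 and 328 HepG2 loci, and 382 and 367 had neither. Loci with facing canonical TSSs held a K562 peak in 60.6% of cases (57.4 to 63.8) and a HepG2 peak in 60.2% (56.9 to 63.3). The 537 loci made by alternative TSSs alone held one in 43.9% (39.8 to 48.2) and 37.2% (33.3 to 41.4). The intervals of the canonical and the alternative loci did not overlap in either line. Most occupied loci held a single peak, while 70 in K562 and 52 in HepG2 held 2, and 9 and 3 held 3.

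To set these loci against other promoters, each gene was asked for a peak within 1 kb upstream of any of its TSSs. Of all 19820 protein-coding genes, 33.9% had one in K562 and 28.8% in HepG2. Among the 2825 genes of bidirectional loci it was 59.9% and 57.1%, and among the 16736 one-sided genes it was 29.5% and 24.1%. The bidirectional genes thus exceeded the one-sided genes by 30.4 percentage points in K562 (28.5 to 32.3) and by 33.0 in HepG2 (31.1 to 35.0). A window of 1 kb usually takes in the partner's TSS, and within 250 bp upstream the difference was 27.3 points (25.3 to 29.2) in K562 and 30.4 (28.5 to 32.4) in HepG2. Facing canonical TSSs lay a median of 233 bp apart, so the window of 250 bp often took in the partner's TSS as well. Genes of a pair share peaks and are not independent. Taking 1 gene per locus left the difference at 30.2 points in K562 (27.5 to 32.9) and 33.0 in HepG2 (30.3 to 35.6). Bidirectional genes also had more annotated TSSs, with a median of 4 against 3, and with 1 canonical TSS per gene the difference was 32.0 points in K562 (29.6 to 34.3) and 36.5 in HepG2 (34.2 to 38.8).

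Bidirectional promoters were more often CpG-rich, here meaning a GC content of at least 55% and a CpG observed-over-expected ratio of at least 0.65 in the 300 bp around the TSS. This held for 77.0% of bidirectional genes (75.4 to 78.5) and 56.0% of one-sided genes (55.2 to 56.7). Among CpG-rich promoters the difference in peak share was 19.3 points in K562 (17.0 to 21.5) and 25.9 in HepG2 (23.7 to 28.2). It was 30.6 points (26.9 to 34.4) and 30.1 points (26.4 to 34.0) among the other promoters, where 37.4% of bidirectional but only 6.83% of one-sided genes had a peak in K562. The median GC content was close, 64.7% in bidirectional and 63.3% in one-sided promoters, but the spread was not alike. Under 50% GC lay 164 of the 2825 bidirectional and 3001 of the 16736 one-sided genes. In each of 7 classes of GC content the bidirectional genes had the higher share in both lines, by between 18.4 and 29.3 points in K562 and between 18.3 and 36.2 in HepG2. These values are for the 1 kb window, and GC content was read at the gene's own TSS only. Within 250 bp the difference was 22.5 points (19.1 to 26.1) in K562 and 23.9 (20.5 to 27.6) in HepG2 outside CpG-rich promoters. Among CpG-rich promoters it was 17.8 and 24.6 points within 250 bp. Under 50% GC it was 25.1 points in both lines within 1 kb, and 15.6 and 15.1 within 250 bp.

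**Figure D1:**
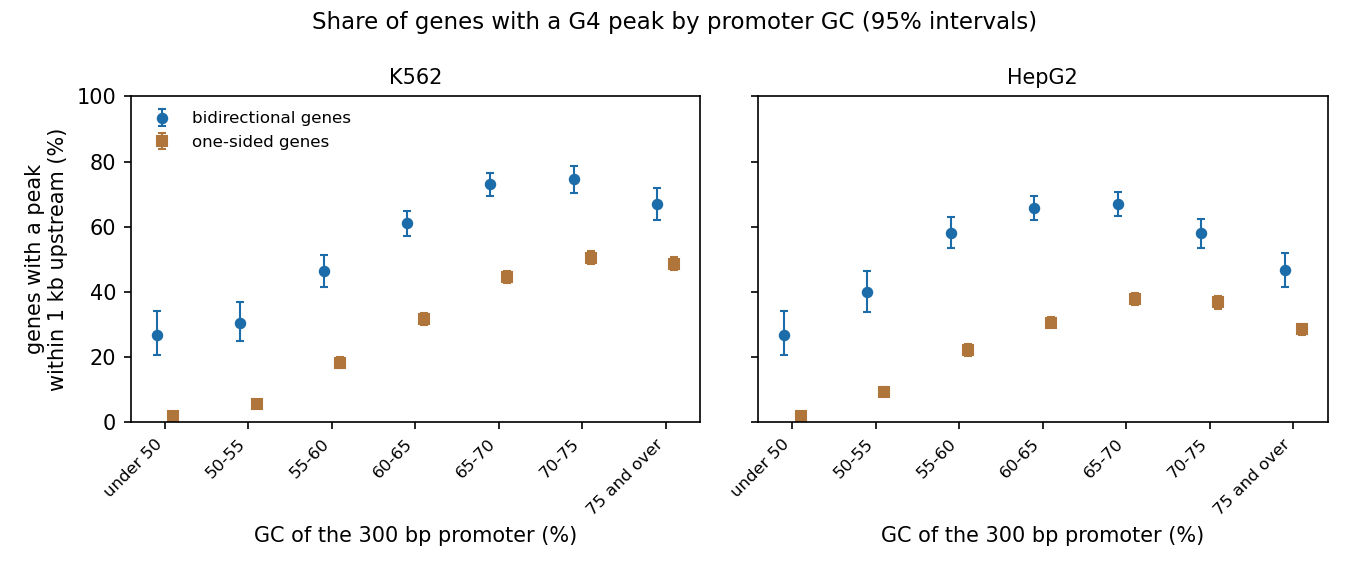
Share of genes with a high-confidence G4 peak within 1 kb upstream (y axis, percent) by GC content of the 300 bp promoter (x axis, percent) for bidirectional genes (circles) and one-sided genes (squares), with 95% Wilson intervals; left K562, right HepG2. Bidirectional genes lie above one-sided genes in every class, and the HepG2 share of bidirectional genes falls from 67.0% at 65 to 70% GC to 46.6% at 75% and over.

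The lines differed in how the share of bidirectional genes moved with GC content. Between 65 and 70% GC it reached 73.0% in K562 against 67.0% in HepG2. At 70 to 75% it was 74.6% and 58.0%, a difference of 16.6 points (12.2 to 21.1), and at 75% or more it was 67.1% and 46.6%, a difference of 20.4 points (15.5 to 25.3). At 55 to 60% GC the order was the opposite, with HepG2 higher and a difference of -11.9 points (-16.8 to -7.05). One-sided genes differed between the lines in the same direction in these classes, by 13.9 points (12.1 to 15.7) at 70 to 75%, 20.2 points (18.4 to 22.1) at 75% or more and -3.81 points (-5.52 to -2.10) at 55 to 60%. The lists of the lines rest on different replicate numbers, so a difference between lines cannot be told apart from a difference in calling.

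The excess of bidirectional genes was smaller against one-sided genes with an annotated divergent noncoding TSS upstream. Whether such a TSS was active in either line was not tested. Of the one-sided genes, 2799 had an opposite-strand noncoding TSS within 1 kb upstream, and 78.8% of them (77.2 to 80.3) were CpG-rich, close to the bidirectional genes. They had a peak in 45.2% of cases in K562 and 38.0% in HepG2. The bidirectional coding genes exceeded them by 14.8 points in K562 (12.2 to 17.3) and 19.1 in HepG2 (16.5 to 21.6), and among CpG-rich promoters by 13.6 points (10.7 to 16.4) and 19.4 points (16.5 to 22.2). One-sided genes without such a TSS lay further below, at differences of 33.5 points (31.6 to 35.5) and 35.9 points (33.9 to 37.8).

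Occupancy varied with the distance between the facing TSSs. Canonical TSSs at most 100 bp apart (170 loci, median 69 bp) had a peak between them in 38.2% of cases in K562 (31.3 to 45.7) and 31.8% in HepG2 (25.2 to 39.1). From 101 to 200 bp the shares were 61.6% (54.9 to 67.8) and 60.2% (53.5 to 66.5), and from 201 to 300 bp 64.0% (57.0 to 70.5) and 72.0% (65.2 to 77.9). At 501 to 1000 bp they were 71.1% (63.4 to 77.7) in K562 and 62.5% (54.6 to 69.8) in HepG2. As a base for stretches of unequal width, windows of the same median width were set upstream of each one-sided canonical TSS. Their share rose only from 24.4% to 27.4% in K562 and from 18.4% to 22.2% in HepG2. The excess of the bidirectional stretches was 13.9 points (6.85 to 21.4) in K562 and 13.4 (6.85 to 20.8) in HepG2 at up to 100 bp, and 37.6 points (30.5 to 44.1) and 50.8 points (44 to 56.8) at 201 to 300 bp. Where both promoters of a pair were CpG-rich and were set against CpG-rich one-sided promoters, the excess at up to 100 bp was 1.46 points (-6.25 to 9.58) in K562 and 6.21 (-1.07 to 14.2) in HepG2, both intervals including 0. At 201 to 300 bp it was 31.2 points (23.6 to 37.5) and 47.7 points (40.5 to 53.2).

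**Figure D2:**
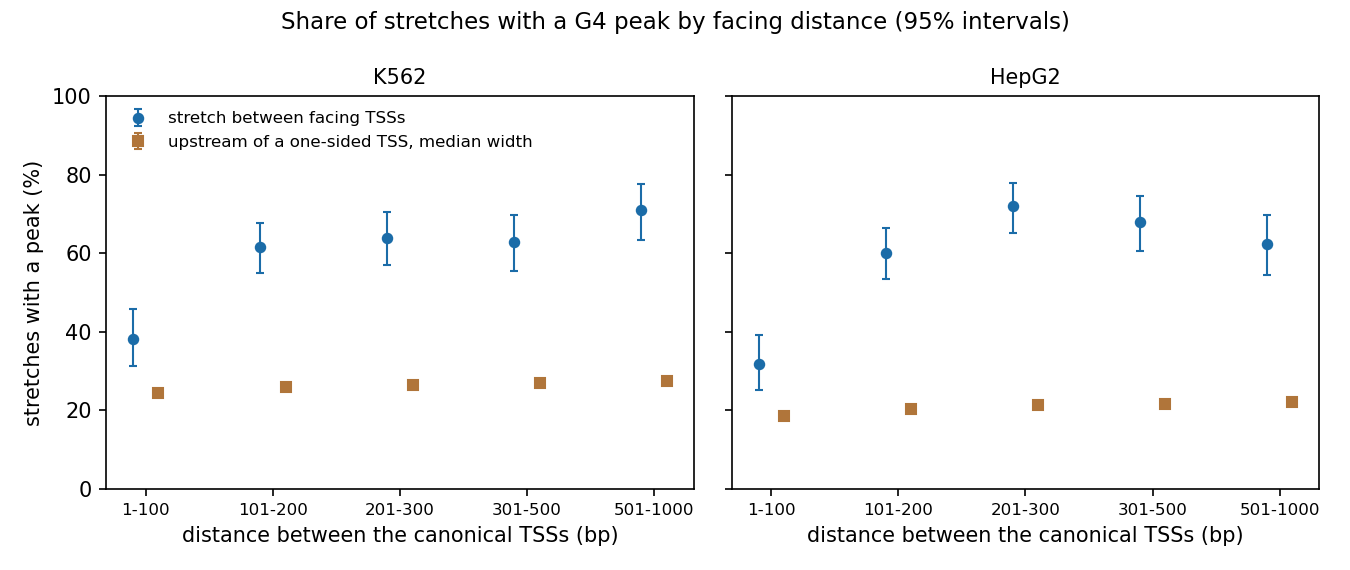
Share of stretches with a high-confidence G4 peak (y axis, percent) by the distance between the facing canonical TSSs (x axis, bp; circles), beside windows of the same median width upstream of one-sided canonical TSSs (squares), with 95% Wilson intervals; left K562, right HepG2. The bidirectional share is lowest at up to 100 bp, 38.2% in K562 and 31.8% in HepG2, and the one-sided share stays between 18.4% and 27.4%.

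Peaks sat differently in narrow and wide stretches. Where the canonical TSSs were 201 to 300 bp apart, the peak was central, with a median distance of its centre from the midpoint of 30.2 bp in K562 (22 to 37.5; 122 peaks) and 24.5 bp in HepG2 (19.5 to 31.5; 141 peaks), and a median width of 266 and 253 bp. Such a peak covered both TSSs in 32.0% of cases in K562 (24.4 to 40.7) and 31.9% in HepG2 (24.8 to 40.0). At up to 100 bp it covered both in 64.6% (52.5 to 75.1) and 50.9% (38.1 to 63.6). At 301 to 500 bp the centres were still nearer the midpoint than a TSS at the median, by 75 against 112 bp in K562 (119 peaks) and by 42 against 136 bp in HepG2 (127 peaks). At 501 to 1000 bp the centres lay away from the midpoint, by a median of 274 bp in K562 (243 to 298; 141 peaks) and 234 bp in HepG2 (186 to 262; 112 peaks), and near a TSS, at a median of 94.0 bp (84.5 to 108) and 133 bp (118 to 148). In these wide stretches 1 peak in each line covered both TSSs, and 32 loci in K562 and 16 in HepG2 held 2 or more peaks, against 1 and 5 at 201 to 300 bp. Here 73 peaks lay nearer the minus-strand TSS and 68 nearer the plus-strand TSS in K562, and 55 and 57 in HepG2. At 301 to 500 bp these numbers were 71 and 48 in K562 and 70 and 57 in HepG2, and at 101 to 200 bp 76 and 57, and 72 and 60. At 201 to 300 bp they were 65 and 54 in K562 and 60 and 81 in HepG2, and at up to 100 bp 33 and 31, and 29 and 26. These splits were not tested.

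**Figure D3:**
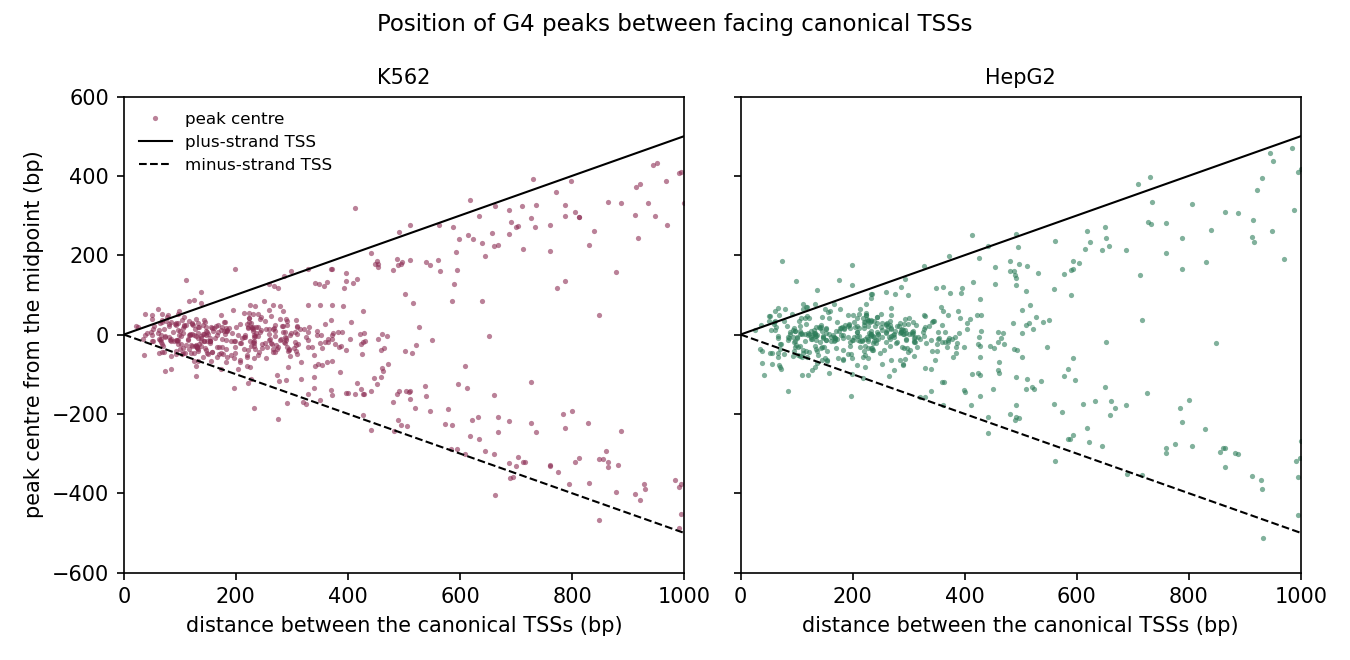
Centre of each member at a locus with facing canonical TSSs, as its distance from the midpoint between the TSSs (y axis, bp; positive toward the plus-strand gene) against the distance between the TSSs (x axis, bp), each point 1 peak; the solid line marks the plus-strand and the dashed line the minus-strand TSS; left K562, right HepG2. Centres gather near the midpoint up to about 300 bp, lie a median of 75 bp (K562) and 42 bp (HepG2) from it at 301 to 500 bp, and form 2 arms along the TSSs at 501 to 1000 bp, with medians of 94.0 bp (K562) and 133 bp (HepG2) from the nearer TSS at 501 to 1000 bp.

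Over all members at canonical loci, the centre lay a median of 68.5 bp from the nearest canonical TSS in K562 (62.5 to 75.5; 581 peaks) and 82.0 bp in HepG2 (77.5 to 88.0; 568 peaks). One-sided peaks at canonical TSSs lay at 91.0 bp (89.0 to 93.5) and 111 bp (108 to 114). Members covered the nearest TSS in 79.7% of cases in K562 and 70.6% in HepG2, and one-sided peaks in 61.8% and 42.0%, which differ by 17.9 points (14.2 to 21.3) and 28.6 points (24.4 to 32.5). A member has a TSS on either side to be near and a one-sided peak only 1. Members also had to overlap the stretch between the facing TSSs, a median of 233 bp over all canonical pairs. One-sided peaks had to overlap a window of 1 kb, so the choice of members itself limited how far they could lie from a TSS. The part of these rules in the differences was not tested. Members were 214 bp wide at the median in K562 (206 to 222) and 208 bp in HepG2 (199 to 218), and one-sided peaks 207 bp (204 to 211) and 184 bp (180 to 189).

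Members were shared between the lines more often than one-sided peaks. Of all high-confidence peaks on the nuclear chromosomes, 51.1% of K562 peaks overlapped a HepG2 peak and 53.9% of HepG2 peaks a K562 peak. Of the members, 642 of 869 in K562 did so (73.9%, 70.9 to 76.7) and 632 of 799 in HepG2 (79.1%, 76.1 to 81.8). One-sided peaks did so in 58.9% (57.6 to 60.2) and 74.1% (72.8 to 75.4), lower than the members by 15 points in K562 (11.7 to 18.1) and by 5.02 in HepG2 (1.79 to 8.0). Among peaks of 150 to 250 bp alone, the HepG2 difference was 1.79 points (-3.97 to 6.81) and the K562 difference 15.5 points (9.86 to 20.6). With the lower-confidence lists it was 16.2 points (14.1 to 18.2) in K562 and 15.3 points (13.0 to 17.3) in HepG2. Only 48 K562 members (5.52%) and 42 HepG2 members (5.26%) met no interval of either list of the other line, against 15.5% and 12.5% of one-sided peaks. Shared peaks were nearly superimposed, with a median offset of centres of 25.8 bp among members (23 to 28.0) and 25 bp among one-sided peaks (23.5 to 26.0).

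Counted by locus, 607 of the 1436 loci (42.3%, 39.7 to 44.8) had a peak in both lines and 279 (19.4%, 17.5 to 21.6) had no interval in any list. A peak in K562 with no HepG2 interval was found at 35 loci, and the reverse at 30. Medians of GC content and CpG ratio here are over stretches of at least 100 bp. These were 31 of the 35, 28 of the 30, 252 of the 279 and 597 of the 607. The 35 loci had a median GC content of 72.1% (68.0 to 73.1) and 20 of them held a G4 motif (57.1%, 40.9 to 72.0). The 30 loci had a median GC content of 62.6% (57.3 to 64.8) and 9 held a motif (16.7 to 47.9%). The loci without any interval had a median GC content of 60.7% (59.2 to 62.3) and a CpG ratio of 0.735 (0.675 to 0.777), against 66.3% (65.5 to 66.8) and 0.871 (0.853 to 0.883) at the loci with a peak in both lines. They were also narrower, with a median of 294 bp (245 to 356) against 457 bp (430 to 491). A wider stretch has more room for an overlap of 1 bp, and the part of this in the difference in width was not tested.

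Although bidirectional promoters held peaks more often, their peaks held G4 motifs less often than one-sided peaks did. The promoters themselves, with or without a peak, differed in the same direction. The 300 bp promoter held a motif in 29.3% of bidirectional genes (27.6 to 31.0) and 34.6% of one-sided genes (33.9 to 35.3). The part of this in the difference between the peaks was not tested. A motif was found in 32.6% of all K562 and 20.6% of all HepG2 peaks on the nuclear chromosomes. Of the members, 225 in K562 (25.9%, 23.1 to 28.9) and 163 in HepG2 (20.4%, 17.8 to 23.3) held one. One-sided peaks held one in 36.8% (35.5 to 38.1) and 27.0% (25.7 to 28.3), and members minus one-sided peaks was -10.9 points in K562 (-14.0 to -7.63) and -6.58 in HepG2 (-9.55 to -3.37). In HepG2 the member share was at the level of all HepG2 peaks, and with the lower-confidence lists the HepG2 difference was -2.20 points, its interval including 0 (-4.88 to 0.591). Members were also less GC-rich, with a median of 69.4% (68.8 to 69.9) against 71.7% (71.5 to 72.0) in K562 and 66.3% (65.8 to 66.8) against 68.4% (68.1 to 68.6) in HepG2. In windows of 300 bp around the centre with a GC content of 65 to 70%, the difference was -8.08 points in K562 (-13.8 to -1.82) and -4.69 in HepG2 (-10.9 to 2.13). At 70 to 75% it was -7.82 points (-14.5 to -0.901) and -7.79 (-15.9 to 0.646), and at 60 to 65% it was -7.45 (-13.0 to -0.824) and -3.28 (-8.83 to 2.99). At 75% or more it was -6.18 points (-14.7 to 1.39) in K562 and -10.3 (-23.4 to 1.25) in HepG2, and under 60% it was 6.38 (-1.50 to 17.8) and 1.75 (-3.22 to 8.68). At like GC content the interval thus included 0 in every HepG2 class and in the lowest and highest K562 class, and whether the lines differed within a class was not tested. With shorter G-runs the difference was not detectable. A motif of 4 runs of at least 2 G was found in 90.9% of members and 91.9% of one-sided peaks in K562, and in 89.1% and 87.0% in HepG2, with both intervals of the difference including 0 (-3.16 to 0.946 and -0.437 to 4.33).

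The motif also separated occupied from unoccupied promoters less clearly at bidirectional genes. In the 300 bp promoter, a motif was present in 31.5% of bidirectional genes with a K562 peak and 25.9% of those without, a difference of 5.66 points (2.25 to 9.0). In HepG2 the shares were 28.6% and 30.2%, a difference of -1.66 points (-5.07 to 1.72). At one-sided genes this difference was larger, 15.9 points in K562 (14.3 to 17.5) and 6.21 points in HepG2 (4.5 to 7.93). The bidirectional minus the one-sided contrast was -10.3 points in K562 (-14.0 to -6.51) and -7.87 in HepG2 (-11.7 to -4.06). A smaller contrast at bidirectional genes was not particular to the motif, and most of the words described next showed it as well. The promoters in these contrasts were not split by CpG content.

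Short words of promoter-binding factors were searched on both strands of the same windows. GGGCGG, the GC box bound by SP and KLF factors, was present in 72.6% of bidirectional promoters and in 61.2% of all coding promoters. It was more frequent in bidirectional promoters with a peak than in those without, by 19.8 points in K562 (16.4 to 23.2) and 12.5 in HepG2 (9.19 to 15.9), and the contrast at one-sided genes was larger, 37.4 points (36.0 to 38.7) and 29.3 points (27.8 to 30.7). CCAAT, the NF-Y word, was present in 39.8% of bidirectional and 35.9% of all promoters. Bidirectional promoters with a peak held it more often by 7.43 points in K562 (3.76 to 11) and 15.4 in HepG2 (11.8 to 19.0), and the one-sided contrast of 6.44 and 14.7 points differed from this by 0.989 points (-3.0 to 4.98) and 0.731 points (-3.23 to 4.70). These letters can occur within other words, GGGCGG also within G4 motifs, and a match is a description of the window only.

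The word CCGGAAG of ETS factors also differed between the classes in the promoters themselves, with 26.4% of bidirectional and 11.8% of one-sided promoters holding it (14.0% of all). At bidirectional genes its share barely depended on a peak, 26.6% with and 26.2% without in K562 (difference 0.343 points, -3.0 to 3.63) and 27.3% and 25.4% in HepG2 (1.91 points, -1.38 to 5.16). At one-sided genes the difference was 9.68 points (8.50 to 10.9) and 10.8 points (9.52 to 12.2). The 300 bp around members held CCGGAAG more often than those around one-sided peaks, by 6.61 points in K562 (3.66 to 9.75) and 7.24 in HepG2 (4.03 to 10.6). GCGCATGCG of NRF1, a respiration-gene activator, was found around 5.52% of K562 and 5.76% of HepG2 members, against 4.32% and 5.08% of one-sided peaks and 2.69% of all promoters, and both differences between the peak classes had intervals including 0 (-0.248 to 3.0 and -0.895 to 2.62). AAGATGGCG of YY1 was held by 4.60% and 4.26% of members, TGACGTCA of CREB by 3.68% and 3.13%, and TATAAA by 2.19% and 2.13%. One-sided peaks held them at much the same level, 3.31% and 2.91%, 3.90% and 3.88%, and 2.1% and 2.86%, and all coding promoters in 2.83%, 2.72% and 9.73%. For these last words members and one-sided peaks differed with an interval off 0 only for AAGATGGCG in HepG2, by 1.35 points (0.0351 to 3.04). Promoters with and without a peak were compared for them too. The bidirectional minus the one-sided contrast was -1.99 points for GCGCATGCG in K562 (-3.69 to -0.295) and -1.90 in HepG2 (-3.61 to -0.196). For AAGATGGCG it was -3.05 (-4.85 to -1.24) and -1.98 (-3.77 to -0.197), and for TGACGTCA -1.24 (-2.78 to 0.289) and -2.26 (-3.84 to -0.682). TATAAA was rarer in promoters with a peak, less so at bidirectional genes, by 6.70 and 6.47 points.

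**Figure D4:**
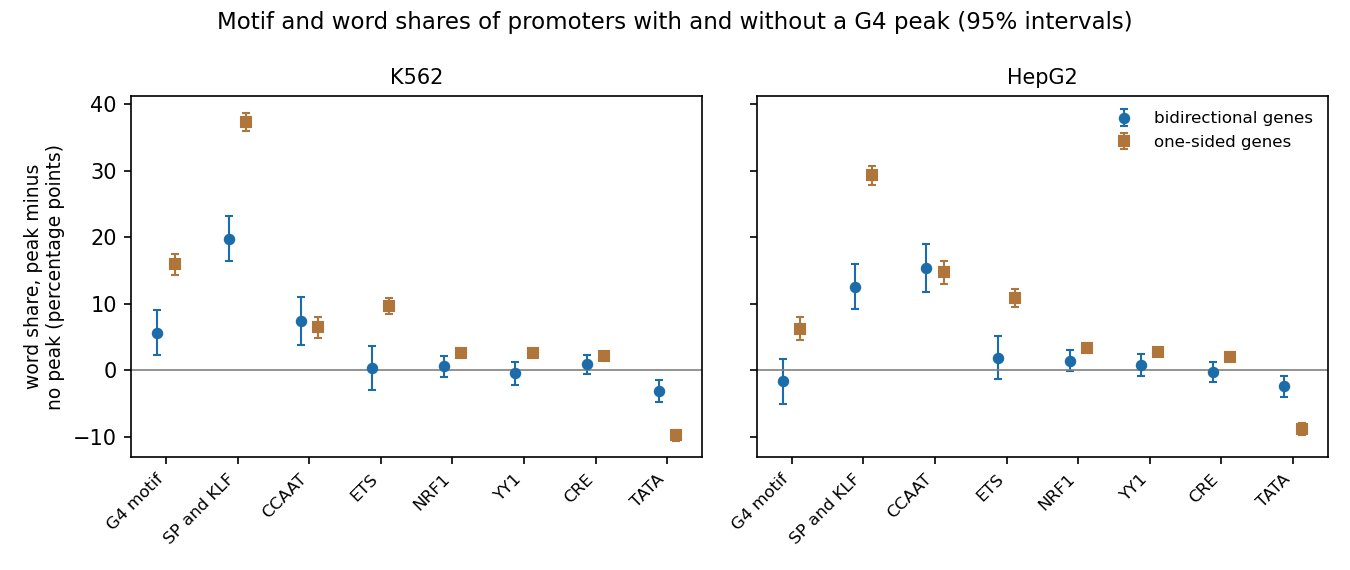
Difference in the share of promoters holding a G4 motif or a factor's word between genes with and without a G4 peak (y axis, percentage points, peak minus no peak) for bidirectional genes (circles) and one-sided genes (squares), with 95% Newcombe intervals; left K562, right HepG2. The bidirectional contrast is smaller in size for the G4 motif and for the SP and KLF, ETS, NRF1, YY1 and TATA words, and close to the one-sided contrast for CCAAT.

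Among members with motifs on a single strand, the strand was read against the nearer gene. The G-runs lay on the coding strand of the nearer gene in 78 of 133 members in K562 (58.6%, 50.1 to 66.7) and 71 of 112 in HepG2 (63.4%, 54.2 to 71.7). One-sided peaks had them there in 53.2% (50.7 to 55.7) and 49.5% (46.4 to 52.7), differing from the members by 5.42 points in K562 (-3.42 to 13.8) and 13.9 points in HepG2 (4.11 to 22.8). With runs of at least 2 G the shares were 70.2% of members and 56.6% of one-sided peaks in K562, a difference of 13.6 points (6.46 to 20.0) whose interval no longer included 0, and 64.7% and 53.8% in HepG2, a difference of 10.9 points (3.97 to 17.4). Split at the midpoint of the stretch, the part nearer the plus-strand gene held 61 plus-strand and 32 minus-strand motifs in K562 and 46 and 25 in HepG2. The part nearer the minus-strand gene held 40 plus-strand and 51 minus-strand motifs in K562 and 34 and 42 in HepG2. Motifs on both strands of the same member were rare, 15 in K562 (1.73%) and 5 in HepG2 (0.626%), against 3.97% and 1.89% of one-sided peaks.

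Well-known bidirectional pairs differed widely. Of 19 pairs listed from textbook knowledge, 15 met the rule, 8 had a peak in K562, 11 in HepG2 and 7 in both, and 3 had no interval in any list. STT3A/CHEK1, FANCA/SPIRE2, RPA2/SMPDL3B and POLR2F/MICALL1 did not meet the rule.

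At NPAT/ATM, whose canonical TSSs lie 429 bp apart (chr11:108093365-108094256 for the merged stretch), the K562 peak was 136 bp wide and covered neither TSS, and the HepG2 peak was 349 bp wide and covered the ATM TSS. At HSPD1/HSPE1, the mitochondrial chaperonin and its co-chaperonin, facing over 539 bp, K562 had peaks of 206 and 144 bp, and HepG2 had a single peak of 600 bp. At PPAT/PAICS, with TSSs 645 bp apart, each line had 2 peaks, of 247 and 208 bp in K562 and of 219 and 215 bp in HepG2, one at each gene. The peaks of the lines thus overlapped one to one at PPAT/PAICS, while at HSPD1/HSPE1 the HepG2 peak spanned both K562 peaks.

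At TAP1/PSMB9 and UFD1/CDC45 each line had a peak beside only 1 of the genes. At TAP1/PSMB9, the antigen peptide transporter and an immunoproteasome subunit, the 180 bp K562 and 139 bp HepG2 peaks lay near PSMB9, with centres 54.5 and 84.0 bp from its TSS and 433.5 and 404.0 bp from that of TAP1. At UFD1/CDC45, the latter a replication helicase subunit, the centres lay 68.5 and 80.5 bp from the CDC45 TSS and 658.5 and 646.5 bp from that of UFD1. At SARS2/MRPS12 both lines had a peak over the MRPS12 TSS while K562 had another of 142 bp that covered no canonical TSS.

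Several pairs split the lines. SURF1 (cytochrome oxidase assembly) and SURF2 lie 63 bp apart, and the 120 bp K562 peak covered both TSSs whereas HepG2 had no interval. CCDC121/GPN1 had the reverse pattern, a HepG2 peak of 138 bp and no K562 interval. HARS1/HARS2 (histidyl-tRNA synthetases) and TMEM258/FEN1 (flap endonuclease) had a HepG2 peak, of 122 and 50 bp, and only a lower-confidence interval in K562. COL4A1/COL4A2 and COL4A4/COL4A3, chains of basement membrane collagen, and ZAR1L/BRCA2 had no interval in either line, although the stretches had GC contents of 76.7%, 70.0% and 61.0%.

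**Figure D5:**
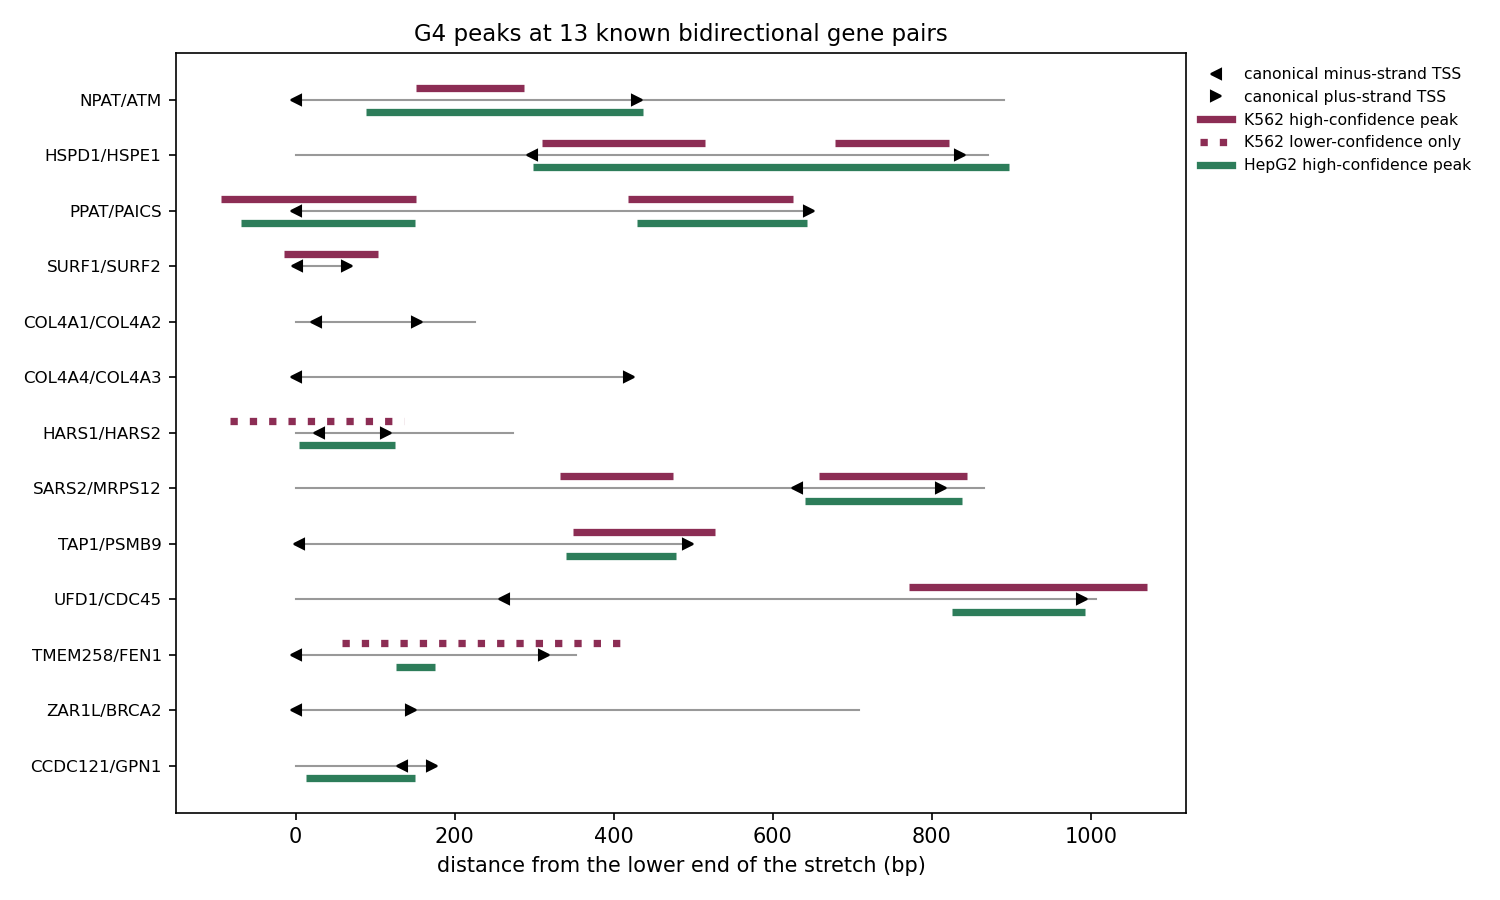
Map of 13 of the 15 textbook pairs that met the rule, each row a merged stretch (grey line) with its canonical TSSs (arrowheads), K562 peaks above and HepG2 peaks below the line, solid for high-confidence and dotted for lower-confidence only; the x axis is the distance in bp from the lower end of the stretch. Of the pairs drawn, 6 have a high-confidence peak in both lines, and COL4A1/COL4A2, COL4A4/COL4A3 and ZAR1L/BRCA2 have none.

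The loci with most peak sequence were shared. MBOAT7/TSEN34 (a lysophospholipid acyltransferase and a tRNA splicing subunit) held 1166 bp of peaks in K562 and 1230 bp in HepG2, OARD1/NFYA held 869 and 797 bp, and IFT25/LRRC42 held 813 and 516 bp. TBC1D10B/MYL11 held 994 bp in HepG2, as 1 peak, and 507 bp in K562. Of these 4, only the IFT25/LRRC42 and MBOAT7/TSEN34 stretches held a G4 motif, 4 and 1, and the MBOAT7/TSEN34 peaks themselves held none.

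Among the largest peaks seen in 1 line alone were, in K562, CCDC78/HAGHL (390 bp) and TCF12 with its unnamed partner (318 bp). In HepG2 the largest were SEPTIN10/SOWAHC (465 bp), M6PR/KLRG1 (326 bp in 2 peaks; the mannose-6-phosphate receptor and a lymphocyte receptor) and CRNKL1/CFAP61 (292 bp; a splicing factor and a cilium protein). No locus held more than 3 peaks. Among the loci with 3 were MBOAT7/TSEN34, KIAA0319L/NCDN and PRKRA/PJVK in K562, and in each of these 1 of the 3 was a very short interval, of 10, 5 and 2 bp.

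Among loci whose merged stretch ended exactly at the canonical TSSs, the widest with a peak in both lines were RPL7/RDH10 (ribosomal protein and retinol dehydrogenase, 969 bp apart) and HECTD3/UROD (a ubiquitin ligase and a heme synthesis enzyme, 930 bp apart). The GC-richest stretches without any interval were GPR143/SHROOM2 (89.5% GC, 3 motifs), NRG4/TMEM266 (89.0%, 2 motifs) and HES2/ESPN (84.9%, 2 motifs).

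Gene groups listed by symbol differed in how many members were bidirectional and in how many of these had a peak. Of all coding genes 14.3% were bidirectional, against 47.5% of 59 listed DNA repair genes, 47.9% of 48 genes of mitochondrial complex I and its assembly factors, 37.2% of 78 mitochondrial ribosomal proteins, 37.3% of 59 core histones and all 6 collagen IV genes. Zinc finger genes, at 12.9% of 512, lay below the share of all genes. Several groups were listed because bidirectional pairs are known in them, so the shares are descriptions. A peak in the stretch was found for 56.2% of all bidirectional genes in K562 and 53.3% in HepG2.

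DNA repair genes lay above these shares, with a peak for 21 of 28 in K562 (75%) and 23 in HepG2 (82.1%). Both lines had one at BRCA1/NBR1, PMS2/AIMP2, XPC/LSM3, PRKDC/MCM4 and PURG/WRN, and neither had an interval at FKBP3/FANCM, RAD52/ERC1 and ZAR1L/BRCA2. One-sided DNA repair genes had a peak in 65.5% and 62.1% of cases. One-sided genes of every group were counted by a peak within 1 kb upstream of a TSS, not within a stretch. Aminoacyl-tRNA synthetase genes had a peak in 7 of 12 in K562 and 9 in HepG2, and mitochondrial ribosomal proteins in 16 and 15 of 29. Genes for centrosome and cilium had one in 14 and 12 of 20. Genes with PSM symbols, which include proteasome subunits but also PSMG2 and PSME3IP1, had one in 9 and 6 of 15. Cytosolic ribosomal proteins had one in 12 and 9 of 21, and zinc finger genes in 34 and 31 of 66. Complex I genes were lower in K562, with 9 of 23 (39.1%) against 11 in HepG2 (47.8%). NDUFS1/EEF1B2 and NDUFA7/RPS28 had a peak in both lines, and MRPL36/NDUFS6 had no interval in either. In a single line, some groups had the higher share among one-sided genes. In K562 these were aminoacyl-tRNA synthetases (69.6% against 58.3% of bidirectional genes) and complex I (41.7% against 39.1%). In HepG2 they were cytosolic ribosomal proteins (52.9% against 42.9%) and the genes with PSM symbols (48.6% against 40.0%). The bidirectional share was higher in their other line, and in both lines for the other groups of this paragraph. These differences were not tested.

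Core histones and collagen IV had no peak. None of the 22 bidirectional histone genes, which face each other as H2A and H2B pairs at every locus but H3C7/H2BC9, had a high-confidence peak in either line. Of their 11 loci, 2 had a lower-confidence interval, H2BC11/H2AC11 in K562 and H2AC15/H2BC15 in HepG2. The median GC content of these loci was 41.4%, against 64.9% over all loci, and 1 of the 36 one-sided histone genes had a peak in each line. The 3 collagen IV loci had a median GC content of 70.0% and no interval in any list.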

How the data were processed

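G4 ChIP-seq intervals of K562 and HepG2 were used as deposited. The values in the files are interval start and end positions, and the authors made them by trimming with cutadapt 1.16, alignment to hg19 with BWA 0.7.15, duplicate removal with Picard 2.14.0 and samtools 1.6, MACS2 2.1.1 peak calling per replicate at a q-value under 0.05, and merging with bedtools 2.26.0. Sonication to fragments of 100 to 500 bp limits how finely position and width are resolved. No depth was given.

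Here, TSSs of all protein-coding transcripts came from GENCODE release 44 lifted to GRCh37, and sequence from the GRCh37 genome. Overlap meant at least 1 bp. Shares have Wilson, differences Newcombe and medians order-statistic intervals, and contrasts between differences normal-approximation intervals, all unadjusted and without p-values. Named loci were a list of textbook pairs and the loci with most peak sequence, most peaks, widest stretch or highest GC content, and some of them are not reported here. The members, gene lists and words were chosen with earlier results of these data known. Functions were tested on simulated data. Python 3.11.15, numpy 2.4.6, scipy 1.17.1 and pysam 0.24.0 were used.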

Additional observations from a re-analysis of the deposited data

Results flagged for a closer look

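The lines differed in the excess of bidirectional over one-sided genes with a peak, which was 30.4 percentage points in K562 and 33.0 in HepG2. K562 minus HepG2 was -2.64 points (95% interval -4.5 to -0.785, normal approximation over paired genes). Among CpG-rich promoters the excess was 19.3 and 25.9 points, and the difference between the lines was -6.68 points (-8.93 to -4.43). The lines also differed in how much more often members than one-sided peaks overlapped a peak of the other line, by 15 points in K562 and 5.02 in HepG2, a difference of 9.94 points (5.48 to 14.4). With the lower-confidence lists the same values were 16.2 points in K562 (14.1 to 18.2) and 15.3 in HepG2 (13.0 to 17.3), and their difference was not tested. The difference in motif share, -10.9 and -6.58 points, differed between the lines by -4.33 points with an interval that included 0 (-8.76 to 0.109). The intervals of these peak contrasts took the peaks of the lines as independent, although 73.9% of K562 members overlapped a HepG2 peak. They are thus approximate, and whether the motif contrast differed between the lines is undecided. The lists were merged from different numbers of replicates, and the part of this in the differences between lines was not tested.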

How the results depend on the processing

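Each of 18 results was recomputed under alternative settings, giving 76 values, of which 61 kept their direction and side of 0 or stayed within the interval or the 1.5-fold range of the reported value. The excess of bidirectional genes kept an interval above 0 under every alternative tried, also among CpG-rich promoters. With the lower-confidence lists, HepG2 members numbered 1243, the share of loci with a peak was 73.4% in K562 and 74.4% in HepG2, and the HepG2 difference in motif share was -2.20 points (-4.88 to 0.591). With 1 TSS per gene the locus shares were 59.6% and 59.1%, and the HepG2 difference in shared peaks was 2.27 points (-1.47 to 5.68). They were 51.0% and 48.7% at facing distances of at most 500 bp, and 51.2% and 48.5% when the peak centre had to lie in the stretch. Among peaks of 150 to 250 bp the HepG2 difference in shared peaks was 1.79 points. With runs of at least 2 G, which about 9 in 10 peaks held, the motif difference was -0.948 points in K562 and 2.1 points in HepG2, the latter of opposite sign with an interval including 0 (-0.437 to 4.33), and the coding-strand share in K562 was 70.2%. Beyond this construction, the causes were not tested.

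No replicate, height or depth came with the intervals, so leaving out a replicate was not possible, and a locus without an interval is one where none was called. No paired analysis was possible because the lists carry no replicate numbers. An annotation with other TSSs would change the members, and interval widths depend on how replicates were merged.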

Other observations

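Occupancy of bidirectional loci varied between chromosomes, which was noticed after the values were seen and not tested. On chromosome X 13 of 42 loci had a peak in K562 and 3 in HepG2, while their median GC content was 62.5%. One-sided genes on chromosome X had a peak in 13.2% of cases in K562 and 4.02% in HepG2. On chromosome 14, 25 of 65 loci had a peak in K562 and 40 in HepG2, and on chromosome 1, 81 and 63 of 123 loci did. One-sided genes moved the same way between the lines, with 22.4% and 30.5% on chromosome 14 and 33.5% and 22.8% on chromosome 1.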
